A study of Drosophila melanogaster with 2 samples.

Results

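Peaks of the transcription factor Usf at the starts of noncoding genes that stand apart from any protein-coding promoter are described here. A chromatin immunoprecipitation and sequencing (ChIP-seq) peak was included when its summit lay within 500 bp of a transcription start site (TSS) of a gene whose symbol begins with lncRNA: or asRNA:, and more than 1 kb from every protein-coding TSS. The choice rests on position alone and used no signal. Of the 21315 peaks in the authors' pooled list, 374 met it (1.75%, 95% Wilson interval 1.59 to 1.94%). The positions that meet the rule make up 1.28% of the chromosome arms (1711497 of 133880608 bp).

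The material was whole Drosophila melanogaster embryos of 0 to 16 hours, males and females pooled, from a transgenic line with a stable fusion of green fluorescent protein (GFP) to the C terminus of Usf. There was 1 group of 2 biological replicates, numbered 3 and 4 in the labels, and an antibody to GFP was used for the immunoprecipitation. The samples analysed here include no untagged or input library, and a whole embryo of this age range mixes all tissues and stages, so a peak cannot be assigned to a cell type. What drives the tagged gene, and whether the untagged gene was still present, is not stated in the labels.

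Usf belongs to the basic helix-loop-helix leucine zipper factors, which bind as dimers to E-box sequences; the vertebrate family members prefer CACGTG. Long noncoding RNAs (lncRNAs) are transcribed by RNA polymerase II like messenger RNAs, from promoters of their own, and some of them are precursors of microRNAs. Antisense RNAs (asRNAs) are noncoding transcripts that run against another gene. In the compact fly genome many such starts lie beside a coding promoter, where a peak belongs to both, which is why the starts away from coding promoters are set apart.

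The authors' relaxed lists hold true peaks together with background. The stricter list, cut by the irreproducible discovery rate (IDR), a measure of how well the ranks of peaks repeat between replicates, held 2767 peaks, and these were the 2767 strongest of the pooled list. Peaks are described below by the signal value that the authors' caller wrote for each, whose scaling is not stated, and by rank within a list. Pooled signals ran between 22.1 and 1798.4, and the weakest IDR peak had 71.3.

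The sequences at 5 summits show what these sites look like. They are 4 of the 5 strongest sites and Hsromega, a well-studied lncRNA with an IDR peak. Each runs 50 bp to either side of the summit, on the plus strand of dm6 (Release 6, RefSeq sequence), 5′ to 3′. Capitals mark TTAAAA, a word named in an earlier account of these data, or the E-box variant CATGTG. Both were marked on either strand (CATGTG reads as CACATG on the other). In Hsromega the single capital is the summit base. They come from chr3R:29214402-29214502 (CR31044), chr2L:14024013-14024113 (CR31840), chr3L:3250207-3250307 (CR43626), chr3R:17700535-17700635 (CR46036) and chr3R:21296257-21296357 (Hsromega).
CR31044: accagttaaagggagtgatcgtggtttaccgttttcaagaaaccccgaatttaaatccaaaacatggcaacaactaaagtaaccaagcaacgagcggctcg
CR31840: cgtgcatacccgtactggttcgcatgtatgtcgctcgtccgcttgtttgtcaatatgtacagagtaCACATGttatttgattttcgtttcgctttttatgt
CR43626: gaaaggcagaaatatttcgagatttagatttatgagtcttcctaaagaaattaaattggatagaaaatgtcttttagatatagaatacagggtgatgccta
CR46036: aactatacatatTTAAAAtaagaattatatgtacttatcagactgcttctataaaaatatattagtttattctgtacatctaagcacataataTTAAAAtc
Hsromega: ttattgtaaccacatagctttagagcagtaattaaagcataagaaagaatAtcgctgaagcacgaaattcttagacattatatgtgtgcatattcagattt

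None of these 5 windows holds CACGTG. The window at CR46036 is 19.8% GC and holds TTAAAA at 2 places, and that at CR43626 is 29.7% GC. The CR31044 and CR31840 windows are richer in GC, at 43.6% and 41.6%, and the Hsromega window has 30.7%.

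Of the IDR peaks at lone noncoding starts, 4 held CACGTG less than 100 bp away, and 3 of these sites are printed to show the E-box in its surroundings. Each stretch is 60 bp of the plus strand of dm6, 5′ to 3′, with CACGTG in capitals, at chr3R:11780395-11780454 (CR45595), chr2L:4350964-4351023 (CR44700) and chr2L:7423518-7423577 (CR43857).
CR45595: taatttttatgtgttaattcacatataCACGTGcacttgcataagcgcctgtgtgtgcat
CR44700: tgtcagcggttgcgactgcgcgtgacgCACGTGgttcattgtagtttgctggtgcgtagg
CR43857: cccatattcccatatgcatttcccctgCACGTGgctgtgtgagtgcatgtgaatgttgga

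The CACGTG centre lay 89.5 bp from the summit at CR45595, 66.5 bp at CR44700 and 76.5 bp at CR43857. The surroundings differ in composition, with 36.7%, 58.3% and 50% GC over the 60 bp in that order. No sequence from arm 2R is printed, which leaves out the site at CR43650. There the CACGTG centre lay 6.5 bp from the summit, so the printed sites are the ones farther from their summits. CR43857 was outside the rule for named genes and was added after its values were seen, because it contains a microRNA gene.

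As a class, these peaks were mostly weak, with a minority in the IDR list. Their median pooled signal was 30.3 (95% order-statistic interval 29.7 to 32.2), with quartiles of 25.3 and 46.3 and a maximum of 761.4, against a median of 29.7 (29.5 to 29.9) over all pooled peaks. In the IDR list were 65 of the 374 (17.4%, Wilson interval 13.9 to 21.5%), against 13% of all pooled peaks. The interval of these peaks lies above that background, but the difference was not tested, since neighbouring peaks of the same chromatin are not independent.

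The position classes of the pooled list fell in an order. Peaks within 500 bp of an lncRNA or asRNA start that also had a coding start within 1 kb were in the IDR list in 59 of 252 cases (23.4%, 18.6 to 29.0%). For peaks within 500 bp of a coding start with no such noncoding start within 1 kb it was 1314 of 4757 (27.6%, 26.4 to 28.9%), and for peaks over 1 kb from every annotated start 985 of 13073 (7.53%, 7.09 to 8.0%). Lone noncoding starts thus stood between coding starts and positions away from any start, with intervals that overlap neither. Their interval does overlap that of noncoding starts beside a coding start, so that pair is not distinguished beyond counting error.

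**Figure D1:**
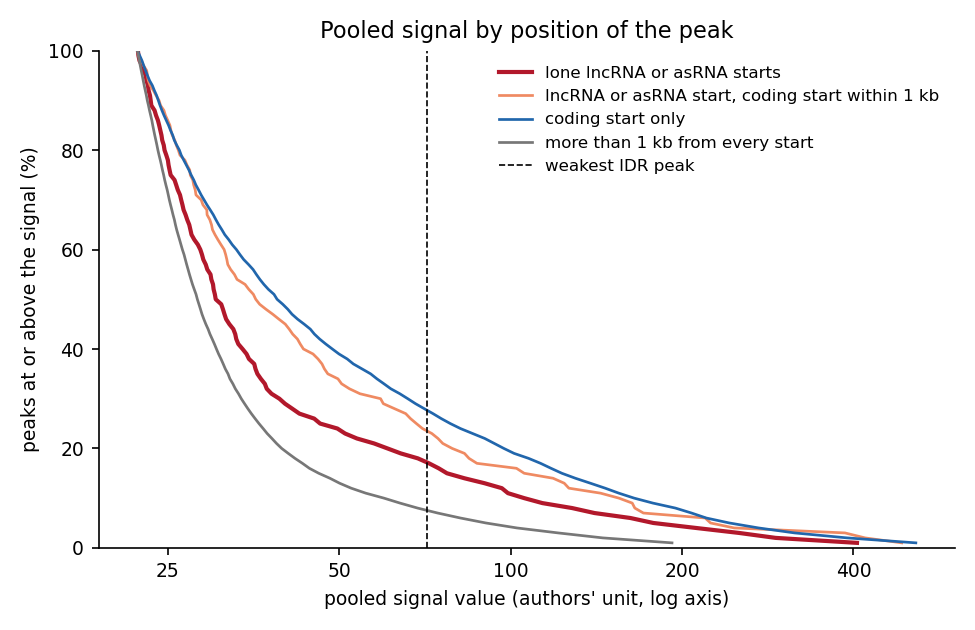
Share of peaks (vertical axis, %) at or above each pooled signal value (horizontal axis, authors' unit, log scale) for 4 position classes, each drawn from its percentiles. The red line of the 374 peaks at lone lncRNA and asRNA starts runs between the line of peaks at coding starts (n = 4757) and that of peaks more than 1 kb from every start (n = 13073); at the weakest IDR signal, 71.3, it stands at 17.4%.

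The median signals had the same order, with 30.3 at lone noncoding starts, 35.7 (32.1 to 41.3) at noncoding starts beside coding ones, 38.9 (38.0 to 40.2) at coding starts and 28.2 (28.0 to 28.3) away from every start. Since the IDR list holds the strongest pooled peaks by this same signal, the IDR shares and the medians are not separate results. Within the IDR list the medians were closer, with 122.6 at lone noncoding starts, against 132.7, 131.3 and 106.5 in those 3 classes and 118.9 over the whole list. Peaks at lone noncoding starts numbered 3 of the 100 strongest, 15 of the 500 strongest and 26 of the 1000 strongest pooled peaks. They made up 3%, 3% and 2.6% of these, against 1.75% of all pooled peaks, which was not tested. With the pooled list cut into 10 equal parts by signal, the strongest part held 50 of them (2.35% of its peaks, 1.78 to 3.08%) and the weakest 31 (1.45%, 1.03 to 2.06%), with no steady fall between.

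Recurrence was counted as a summit in each replicate's own relaxed list within 100 bp of the pooled summit. Both lists had one for 137 of the 374 peaks (36.6%, 31.9 to 41.6%), against 33.3% of all pooled peaks, which lies inside that interval. Only replicate 3 had one for 96 peaks, only replicate 4 for 94, and neither for 47 (12.6%, against 11.9% of all pooled peaks). The share in both was 44.4% at noncoding starts beside coding ones, 49.5% at coding starts and 27.4% away from every start.

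**Figure D2:**
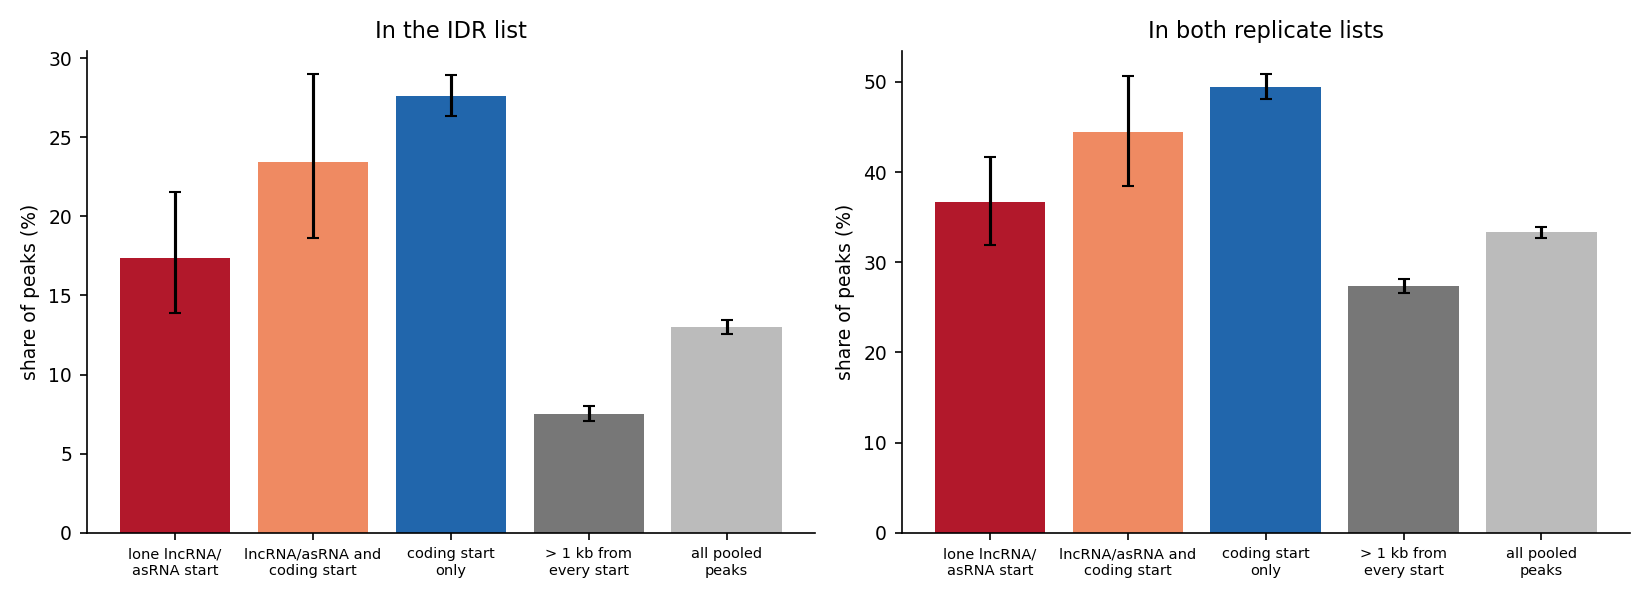
Share of peaks (vertical axes, %) in the IDR list (left) and with a summit within 100 bp in both replicate lists (right), by position of the peak; bars are shares and error bars 95% Wilson intervals. Peaks at lone lncRNA and asRNA starts stand at 17.4% and 36.6%, below peaks at coding starts (27.6% and 49.5%) and above peaks more than 1 kb from every start (7.53% and 27.4%).

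Recurrence split by the IDR list. Its cut rests on how well ranks repeat between replicates, and its peaks are the strongest of a list pooled from both. A split is therefore built in. Of the 65 IDR peaks at lone noncoding starts, 59 were matched in both replicates (90.8%, 81.3 to 95.7%), against 94.5% of all IDR peaks. Of the other 309, 78 were (25.2%, 20.7 to 30.4%), against 24.2% of all pooled peaks outside the IDR list. In the 137 matched in both, the signals of the replicates were correlated across peaks (Spearman rho = 0.77, n = 137 peaks), with 0.80 over the 59 IDR peaks and 0.77 over all 7102 pooled peaks matched in both. These values describe peaks of the same pair of libraries, which share the control alignment and the depth of each library, and carry no test.

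All 6 IDR peaks that lacked a match in 1 replicate had a neighbouring peak 199 to 204 bp away that is also in the set. In every such case the replicate's own list held a peak overlapping the pooled interval, with a summit 110 to 137 bp off. They lay at CR44761 and CR44764, unmatched in replicate 4, and at CR44868, CR43337, CR44544 and CR45565, unmatched in replicate 3. At CR43337, a pooled pair of summits had signals of 90.3 and 23.3, and the replicate 3 summit, with a signal of 68.2 at rank 1306, lay nearer to the weaker. Most pooled intervals are 396 bp wide (20364 of 21315; 41 of the 65 IDR peaks and 308 of the 309 others here), so that such neighbours overlap. In all, 23 pairs of neighbouring peaks of the set had overlapping intervals, which took in 46 of the 374 peaks and 13 of the 65 IDR peaks, so that the 374 summits are not all separate sites.

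The strongest peak was at CR31044 (FBgn0051044), the host transcript of mir-279 and mir-996, microRNAs with a shared seed; mir-279 is known for blocking the formation of CO2-sensing neurons and for a role in rest and activity rhythms. The peak, at chr3R:29214283-29214607, had a signal of 414.8 in replicate 3 (rank 30 of 28459) and 344.1 in replicate 4 (rank 33 of 29246), and 761.4 in the pooled list (rank 32). Both replicates placed it among their first 50 peaks. Its summit lay 110 bp upstream of the start in sequence that no gene covers, and the nearest coding start, that of the translation elongation factor subunit eEF1gamma, was 5720 bp away.

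The peak at CR44339, an lncRNA of no known role here, followed. Its signal was 365.7 in replicate 3 (rank 45) and 284.3 in replicate 4 (rank 50), and 653.6 pooled (rank 47). The summit lay 171 bp upstream of the start and 4202 bp from that of Psc, which encodes a Polycomb group protein. Both peaks were narrow for this list, with intervals of 325 and 344 bp, and neither window holds CACGTG.

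The third by pooled signal, CR31840, differed more in rank between replicates. Its signal was 187.8 in replicate 3 (rank 196) and 271.1 in replicate 4 (rank 57), and 460.1 pooled (rank 96). The summit was 36 bp inside the gene, at chr2L:14023938-14024227, the closest to its start among the 25 strongest. A second lncRNA with an IDR peak, CR45352, has its summit at position 14022286 of the same arm, with a pooled signal of 166.4 and ranks of 606 in replicate 3 and 1038 in replicate 4.

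CR43626, which contains mir-282, had signals of 225.4 in replicate 3 (rank 128) and 201.9 in replicate 4 (rank 111), and 424.8 pooled. Its summit was 337 bp upstream of the nearest start of the gene, inside an exon of transcript forms that start farther upstream. CR46036 had 230.2 in replicate 3 (rank 123) and 162.2 in replicate 4 (rank 188), and 398.6 pooled. That gene runs antisense inside an intron of osa, which encodes a subunit of the Brahma chromatin remodelling complex. CR45595, with CACGTG, had 224.6 in replicate 3 (rank 130) and 153.9 in replicate 4 (rank 215), and 382.8 pooled. Its summit was 306 bp upstream of the start, and the nearest coding start, that of l(3)neo38, was 1207 bp away, close to the limit of the rule.

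**Figure D3:**
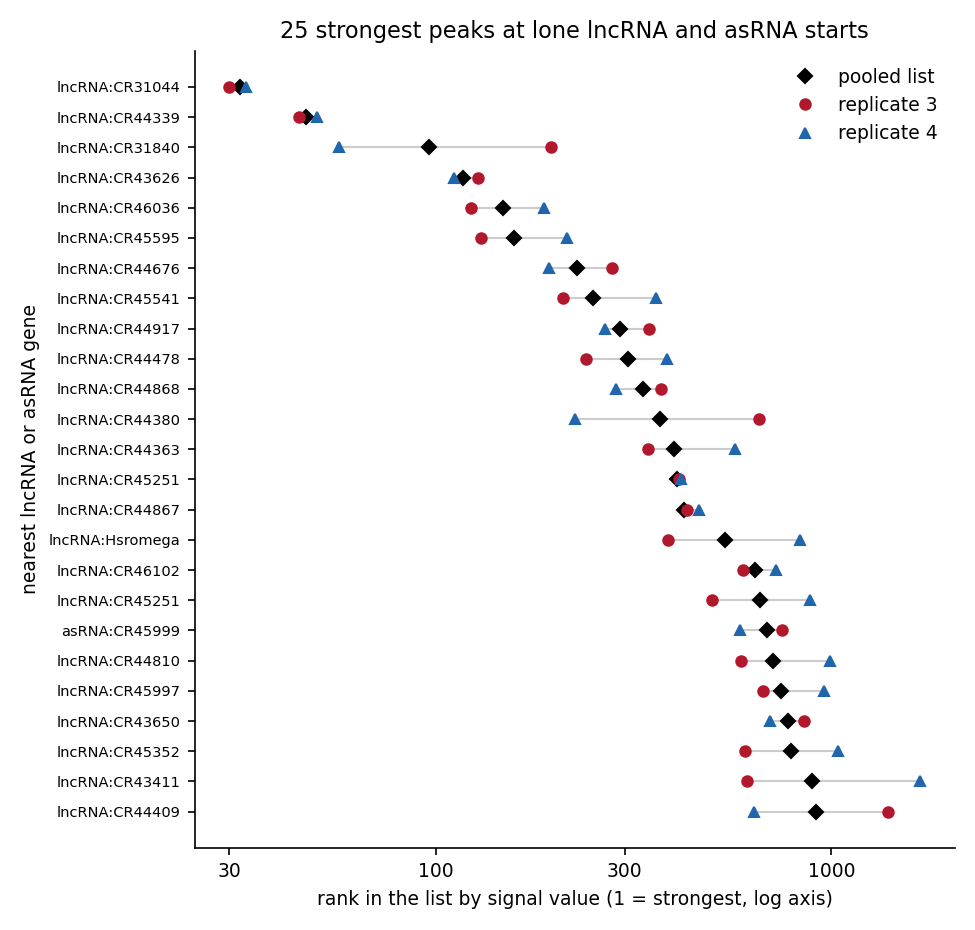
Rank by signal value (horizontal axis, 1 = strongest, log scale) of the 25 strongest IDR peaks at lone lncRNA and asRNA starts in the pooled list (black diamonds), replicate 3 (red circles) and replicate 4 (blue triangles), 1 row per peak by its nearest gene. Ranks in the replicates reach at worst 1393 in replicate 3 and 1678 in replicate 4, and the better rank was in replicate 3 for 16 of the 25.

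Several of the next peaks lay inside or beside genes of known function. CR45541 had 301.2 pooled (183.2 in replicate 3, 117.8 in replicate 4), 1752 bp from the start of Hex-A, a hexokinase. CR44478, inside and antisense to Socs36E, a suppressor of JAK/STAT signalling, had 276.6 pooled (170.5 in replicate 3, 113.9 in replicate 4). An intron of beat-Ib, of the beaten path family of axon guidance proteins, held 3 IDR peaks at antisense lncRNAs: 267.6 and 98.3 at CR44868 and 233.2 at CR44867. CR44868 and CR44867 are annotated on the same strand. The replicates gave 137.7 in replicate 3 and 131.8 in replicate 4 for the first, and 128.0 and 104.4 in that order for CR44867.

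Hsromega is the heat-inducible nuclear lncRNA around which omega speckles of RNA-binding proteins form. Its peak, at chr3R:21296214-21296332, had signals of 134.4 in replicate 3 (rank 386) and 75.8 in replicate 4 (rank 833), and 209.6 pooled (rank 538). The summit was 180 bp inside the gene, in an exon, and 2309 bp from the start of SIFaR, a neuropeptide receptor gene. The interval of 119 bp was among the shortest in the set, where the shortest had 118 bp. Another pooled peak, 345 bp inside one of the gene's later starts, had only 28.5 (rank 11663) and was matched in replicate 4 alone.

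Among the remaining named IDR peaks, CR46102, antisense inside the lipophorin receptor gene LpR2, had 189.9 pooled (ranks 598 in replicate 3 and 725 in replicate 4). CR44810 had 176.4, 4557 bp from slbo, which encodes the C/EBP factor of border cell migration (ranks 590 and 994). CR45997, within an intron of the splicing regulator gene mbl and on its strand, had 171.7 (ranks 671 and 961). CR43411, antisense inside osp and 1861 bp from Adh, the alcohol dehydrogenase gene, had 155.7 and ranks of 611 in replicate 3 and 1678 in replicate 4, the worst of the 25 in replicate 4. CR44409, antisense in the gene of the NF-κB factor Dif, closed the 25 with 154.3 and ranks of 1393 in replicate 3 and 639 in replicate 4.

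The other 7 of the 25 were at lncRNAs and asRNAs of no role known here. CR44676 had 317.5, CR44917 281.2, CR44380 253.9 and CR44363 242.1. CR45251 had a pair of IDR peaks, 239.6 at a summit 314 bp upstream of a start and 185.8 at a summit 383 bp downstream of one, and asRNA:CR45999 had 181.1. The last was 1 of 2 IDR peaks nearest to an asRNA start, the other being asRNA:CR45281 with 82.2, of 21 asRNA peaks in all (9.52%, 2.65 to 28.9%), against 63 of 353 at lncRNA starts (17.8%, 14.2 to 22.2%).

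The 65 IDR peaks had 60 different nearest genes. Their signals ran between 71.5 and 761.4, with 16 over 200 and 25 under 100. The strongest peaks outside the list stood just below its limit: CR44184 with 70.3 (38.2 in replicate 3, 31.1 in replicate 4), CR43929 with 69.9 (35.2 and 41.4 in that order) and CR43928, which holds CACGTG, with 68.9 (45.1 and 21.7). The first 2 of these ranked between 2164 and 3252 in the replicate lists. The weakest IDR peak of the set, at CR45677 with 71.5, ranked 2321 in replicate 3 and 3709 in replicate 4, so the limit has no gap at it.

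Host genes of microRNAs recurred among the strong peaks. The annotation was searched for them after this was seen, so their count is a description. Of the 1730 lncRNA and asRNA genes with a start more than 1 kb from every coding start, 33 contain a microRNA gene on their own strand. Of these 33, 12 had a peak of the set (36.4%, 22.2 to 53.4%), against 19.3% of all 1730 genes, and 5 had an IDR peak (15.2%, 6.65 to 30.9%), against 3.53% of all 1730. Strong peaks at hosts prompted the search, so the intervals cannot show an excess over those backgrounds. The difference was not tested, and the hosts were not matched to the other genes for length or number of starts.

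The 5 hosts with an IDR peak were CR31044 (761.4), CR43626 (424.8), Hsromega (209.6), CR43650 (168.0) and CR43857 (106.7). CR43650 is the host of mir-8, a microRNA of the conserved miR-200 family that is known to promote body growth through the fat body. Its peak had 87.4 in replicate 3 (rank 852) and 84.1 in replicate 4 (rank 700), and its summit lay 115 bp upstream of a start. CACGTG was centred 6.5 bp from that summit, the nearest of the 4 IDR peaks that hold it. CR43857 contains mir-275, known from the mosquito Aedes aegypti for a part in blood digestion and egg development. Its peak had 68.5 in replicate 3 (rank 1297) and 34.7 in replicate 4 (rank 2749), with the summit 196 bp upstream of the start. In Hsromega the microRNA gene, mir-4951, lies 20095 bp from the nearest start.

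The other 7 hosts with a peak had only weak ones. CR43836 (mir-31b) had 37.9, CR43334, the host of the growth-promoting microRNA bantam, 37.4, and CR42651 (mir-10) 34.4. CR44206 (mir-184) had 32.8, let7C, the precursor of the developmental timing microRNA let-7, 32.6, CR46006 (mir-276a) 30.03 and CR45916 (mir-9a) 29.1. These 7 ranked between 6454 and 11132 of the 21315 pooled peaks, whose median signal was 29.7. The 21 hosts without a peak of the set include those of mir-1, mir-124, mir-14, mir-277 with mir-34, and mir-iab-4.

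Most of the classical fly lncRNAs had weak peaks or none. The transposon-silencing piRNA cluster flam had 45.9 pooled (rank 4784; 25.7 in replicate 3, 20.3 in replicate 4), matched in both. The sleep-related lncRNA yar had 29.8 (rank 10591) and was matched in replicate 3 alone, and bxd of the bithorax complex had 29.2 (rank 11052) and was matched in replicate 4 alone. No pooled summit lay within 500 bp of a start of roX1 or roX2, the RNAs of the dosage compensation complex, nor of iab8, acal, noe, sphinx or dntRL. The nearest summit was 4634 bp away at roX1, 1411 bp at roX2, 772 bp at noe and between 1048 and 3542 bp at the other 4. This says that no peak was listed there in mixed whole embryos, not that Usf never binds. The symbols PRAL, Gomafu, bft, pncr003, msa and lincRNA.S9469 are not in the annotation used, and the genes Uhg and inaF-D do not carry the lncRNA: or asRNA: prefix.

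Seen from the genes, a peak at a lone noncoding start was less common than one at a coding start. Of 1730 such noncoding genes, 334 had a peak of the set (19.3%, 17.5 to 21.2%), against 5219 of 13968 protein-coding genes with a pooled peak within 500 bp of a start (37.4%, 36.6 to 38.2%). With IDR peaks it was 61 of 1730 (3.53%, 2.75 to 4.50%), against 13.3% of coding genes. The annotation holds 1945 lncRNA: and 503 asRNA: genes, and among the lone ones 316 of 1519 lncRNA: genes (20.8%, 18.8 to 22.9%) and 18 of 211 asRNA: genes (8.53%, 5.46 to 13.1%) had a peak. Genes with several starts have more chances of one, and coding and noncoding genes were not matched for this. The rules differ too. Noncoding genes counted only with peaks over 1 kb from every coding start, and coding genes with any pooled peak within 500 bp.

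Including 12 genes with a coding start within 1 kb of each of their starts, 346 genes had a start within 500 bp of a peak of the set. Of them, 308 had 1 peak, 36 had 2 and 2 had 3, at CR45157 and CR45998, none of those 6 peaks being in the IDR list. Starts of 2 or more such genes lay within 500 bp of 11 peaks. Only 5 peaks had a start of another kind of noncoding gene or pseudogene within 1 kb.

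Summits were not gathered at the annotated start itself. The median distance to the nearest lncRNA or asRNA start was 261 bp, and 230 bp for IDR peaks, against 244 bp over all base positions that meet the rule. Within 100 bp lay 78 summits (20.9%), against 21.1% of those positions, and 10 of the 65 IDR summits (15.4%). Upstream of the start or on it were 195 of 374 (52.1%, 47.1 to 57.2%) and 37 of the 65 IDR summits (56.9%, 44.8 to 68.2%), against 49.6% of positions.

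**Figure D4:**
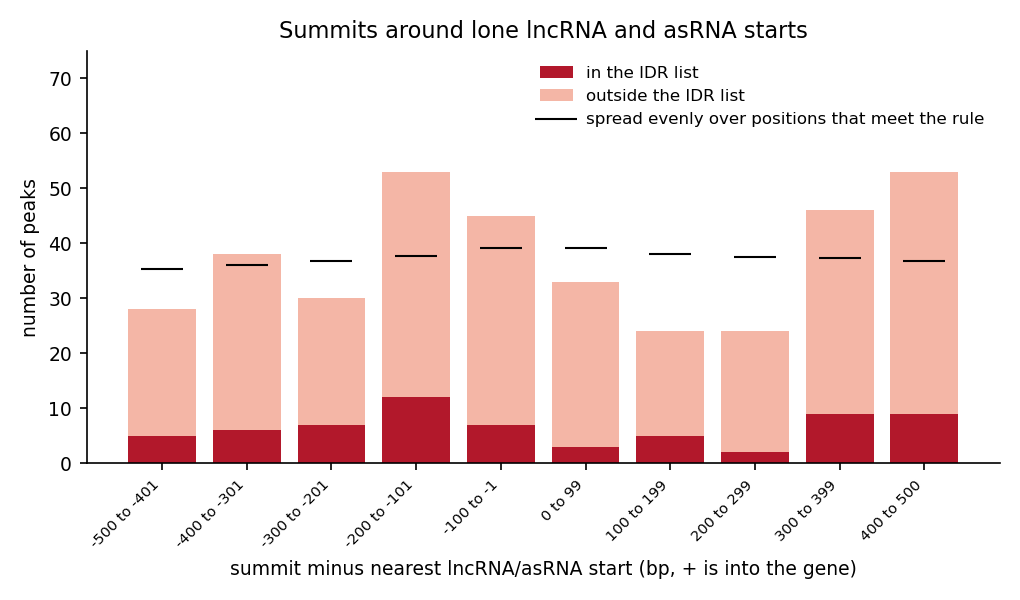
Number of peaks (vertical axis) by signed distance of the summit to the nearest lncRNA or asRNA start (horizontal axis, bp), in the IDR list (dark) and outside it (light). Positive values, labelled as into the gene, are downstream of the start, and in short genes can lie past the gene's end. Black bars mark where 374 peaks would lie if spread evenly over the base positions that meet the rule. Bins 1 to 200 bp upstream hold 53 and 45 peaks, the bins from 100 to 300 bp downstream 24 each, and those from 300 to 500 bp downstream 46 and 53.

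By bins, the summits were thickest just upstream and far downstream. Between 200 and 1 bp upstream, 2 bins of 100 bp held 53 and 45 summits (14.2% and 12.03%, against 10.1% and 10.5% of positions). From 100 to 300 bp downstream there were 24 in each bin (6.42% each, against 10.2% and 10.0% of positions). Beyond 300 bp downstream the bins held 46 and 53. Some genes are so short that such a summit lay at or past their far end. Among the 25 strongest peaks, this held for a summit 383 bp downstream at CR45251, a gene of 349 bp. It also held at CR45997 (424 bp downstream, gene of 410 bp) and CR43411 (433 bp, gene of 364 bp). At CR44676 and CR44478 the summits lay 368 and 399 bp downstream in genes of 371 and 402 bp. Of the IDR summits, 12 of 65 fell in the bin that ends 200 bp upstream, more than in any other, and 2 in the bin that starts 200 bp downstream. Beyond 100 and up to 250 bp from a start 24 of 103 peaks were in the IDR list (23.3%, 16.2 to 32.3%), within 100 bp 10 of 78 (12.8%, 7.12 to 22.0%), and beyond 250 bp 31 of 193 (16.1%, 11.6 to 21.9%), with overlapping intervals. The lists hold no transcript data against which the annotated starts could be checked.

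The limits of the rule cut through the distribution without a gap. Just inside 500 bp lay CR46217 at 500 bp with a signal of 35.6, CR45338 at 499 bp with 23.3 and CR46196 at 498 bp with 30.2. Just outside were CR45435 at 501 bp with 26.4, CR45392 at 502 bp with 50.8 and CR44587 at 504 bp with 33.1. At the 1 kb limit to coding starts, asRNA:CR44114 and CR44621 were just inside at 1029 bp with 37.8 and 25.9, and CR44078 at 1036 bp with 77.3, an IDR peak. Just outside were CR34046 at 985 bp with 27.3, CR44760 at 983 bp with 28.8 and CR43238 at 973 bp with 47.2.

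By annotation, 143 of the 374 summits were intergenic (38.2%), 146 in an exon of an lncRNA or asRNA (39.0%), 55 in an intron of a coding gene (14.7%) and 16 in an intron of a noncoding gene (4.28%). In a coding exon there were 9, and 5 in an untranslated region of a coding gene. The IDR summits had a like makeup, with 26 of 65 intergenic (40%), 23 in a noncoding exon (35.4%), 13 in a coding gene's intron (20%) and 3 in a noncoding intron. None of the 65 was in coding sequence or an untranslated region, against 4 of 1314 in coding exons and 184 of 1314 in untranslated regions among IDR peaks at coding starts, a class that is defined by closeness to such regions. Among IDR peaks away from every start the counts were 4 and 16 of 985, and over the whole IDR list 9 and 218 of 2767. With so low a share away from starts, 0 of 65 does not set the class apart from it.

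Inside a coding gene, on either strand, were 105 of the 374, 74 with the lncRNA antisense to the coding gene and 31 sense. Of these, 19 were in the IDR list (18.1%, 11.9 to 26.5%), 13 antisense and 6 sense, against 46 of 269 outside coding genes (17.1%, 13.1 to 22.1%). The median distance to the nearest coding start was 4142 bp, and 3935 bp for IDR peaks. A distance over 5 kb was found for 160 of the peaks and 23 of the IDR peaks. Closeness to a coding start brought no steady change in the IDR share, which was 13 of 83 at 1 to 2 kb (15.7%, 9.39 to 25.0%), 29 of 131 beyond that up to 5 kb (22.1%, 15.9 to 29.98%), 10 of 73 up to 10 kb (13.7%, 7.61 to 23.4%) and 13 of 87 farther away (14.9%, 8.95 to 23.9%).

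The chromosome arms held the peaks roughly in step with the positions that meet the rule. Arm 2L had 102, 3L 88, 3R 78, 2R 68, X 36 and chromosome 4 had 2. Per Mb of positions that meet the rule this was 231, 215, 195, 274, 182 and 138 in that order. IDR peaks numbered 20, 12, 11, 15, 7 and 0. On X, 7 of 36 were in the IDR list (19.4%, 9.75 to 35.0%), against 58 of 336 on the large autosome arms (17.3%, 13.6 to 21.7%).

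Summits in the IDR list were AT-rich. Within 50 bp of the summit, the median GC content was 29.7% (26.7 to 32.7%) at the 65 IDR summits, against 42.6% (41.6 to 44.6%) at the other 309. Over the whole pooled list the same split gave 32.7% for all IDR peaks and 43.6% for the rest. A GC content under 30%, a limit chosen after the values were seen, was found at 36 of the 65 (55.4%, 43.3 to 66.8%), against 38.2% (36.4 to 40.1%) of all IDR peaks. Outside the IDR list it was 37 of 309 (11.97%, 8.81 to 16.1%), against 11.6% of the rest of the pooled list. Median GC of IDR peaks was 32.7% in each of the other 3 position classes. The range over the 65 was wide, with 12.9% the lowest, at CR44276, and 62.4% the highest, at CR43857.

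**Figure D5:**
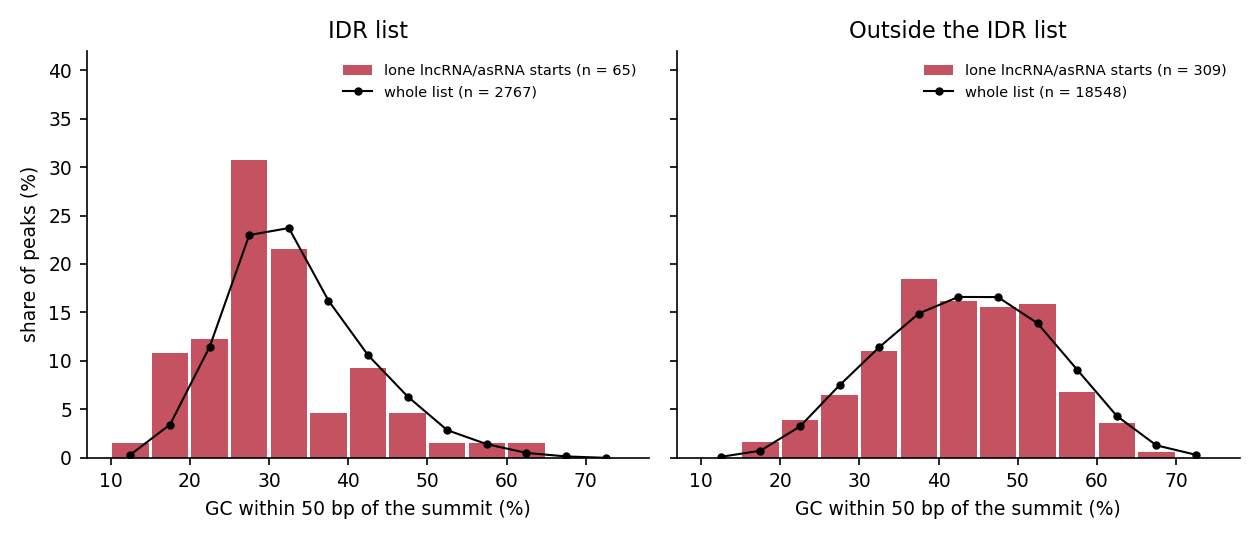
GC content within 50 bp of the summit (horizontal axes, %, bins of 5) as the share of peaks (vertical axis, %), for peaks at lone lncRNA and asRNA starts (red bars) and for the whole IDR list or the whole list outside it (black points). In the IDR list the 65 peaks have their highest bar at 25 to 30% GC and 36 of them lie under 30%; outside it the bars follow the points.

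Motifs were counted up to 100 bp to either side of the summit, on both strands. CACGTG, the E-box of the vertebrate Usf relatives, was found at 9 of the 374 summits (2.41%, 1.27 to 4.51%), against 3.07% of all pooled peaks. In the IDR list it was found at 4 of the 65 (6.15%, 2.42 to 14.8%), against 2.46% (1.94 to 3.10%) of all IDR peaks and 3.50% of those at coding starts. The intervals of the 65 and of the whole IDR list overlap, so the 4 peaks do not set this class apart beyond counting error. CATGTG was found at 56 of the 374 (15.0%, 11.7 to 18.9%), against 10.1% (9.68 to 10.5%) of all pooled peaks, but in the IDR list at 5 of 65 (7.69%, 3.33 to 16.8%), against 6.79%. The interval of the 65 holds both the 15.0% of all 374 and the 6.79% of all IDR peaks.

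CGATAG and TATCGATA are words chosen with an earlier account of these data in view. CGATAG was in 13 of the 374 windows (3.48%, 2.04 to 5.86%), against 6.17% of all pooled peaks, and in 0 of the 65 IDR windows, which allows a share of up to 4.62% by a limit of 3 counts and up to 5.58% by the Wilson interval, against 8.38% (7.41 to 9.48%) of all IDR peaks and 14.0% of those at coding starts. TATCGATA, the element bound by the factor DREF, which overlaps CGATAG where a G follows it, was in 2 of the 374 (0.535%) and 0 of the 65, against 2.71% of all IDR peaks and 5.10% of those at coding starts. In IDR peaks away from every start CGATAG was in 3.15% and TATCGATA in 0.203%. Both words thus had low shares at lone noncoding starts, as they did away from starts, and high ones at coding starts. The difference was not tested.

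TTAAAA was in 31 of the 65 IDR windows (47.7%, 36.0 to 59.6%), against 52.8% of all IDR peaks, and in 33.2% of the 374, against 32.8%. It is a word of AT-rich sequence, and GC content was lower in the IDR list than outside it both here and over all pooled peaks. ACAGTG was in 14 of the 65 (21.5%, 13.3 to 33.0%), against 19.2%, GAGAGA, a word bound by GAGA factor, in 6 (9.23%, 4.30 to 18.7%), against 10.2%, and GGCGCC in 2 (3.08%, 0.848 to 10.5%), against 3.43%. For these 4 words the class matched the whole IDR list within its intervals. A word in the window is a description of sequence and not evidence of binding to it.

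Peaks matched in replicate 3 alone (96) or replicate 4 alone (94) have no ratio of ranks. The ratio was taken over the 137 peaks matched in both lists. The 3 with the largest ratio of ranks were CR43337 (23.3 pooled; ranks 1306 in replicate 3 and 21915 in replicate 4), CR44544 (53.9; 2343 and 27340) and CR46490 (51.9; 22214 in replicate 3 and 2490 in replicate 4). None was in the IDR list. The first 2 are the neighbours of IDR peaks described above, where a single replicate 3 summit fell between a pooled pair. Among the peaks matched in both replicates, the median ratio of the worse to the better rank was 1.68 over 137, against 1.59 over all 7102, and 1.45 over the 59 IDR peaks, against 1.40 over all 2615. The better rank was in replicate 3 for 87 of the 137 and 41 of the 59, against 3560 of 7102 and 1301 of 2615, an imbalance that was not tested.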

How the data were processed

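ChIP-seq peak lists of 2 libraries of Usf-GFP embryos were used, on dm6. Per the deposited sample notes, both were called against the same control alignment and the relaxed lists were the input of the IDR step. The signal of each peak was written by the authors' caller. The aligner, the peak caller and the IDR threshold were not given in the sources used here, and the depth in reads is unknown. Signals therefore served to order and describe peaks inside 1 list. The dm3 lists were not used.

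Starts came from all transcripts of the Ensembl 115 annotation (FlyBase 6.54), and sequence from the RefSeq Release 6 assembly, checked by start codons (30565 of 30618 read ATG). The summit is the interval start plus the offset in the file, matched within 100 bp between lists. Motifs were searched up to 100 bp, and GC content counted up to 50 bp, to either side of the summit. Python 3.11.15, numpy 2.4.6, pandas 2.3.3 and scipy 1.17.1 were used, and the position and matching steps were tested on simulated data. With 1 group, and the control not analysed here, there was no comparison of conditions and no test. Intervals are 95% Wilson intervals or order-statistic intervals of medians; they cover counting over peaks only, and peaks are not replicates. The members and lists were chosen with earlier results of these data known. The rule for named genes took the 25 strongest IDR peaks, the 3 strongest outside, a list of known lncRNAs, the 3 strongest with CACGTG, the 3 least equal in rank, the 3 nearest each limit and the genes with most peaks. The alternatives were other distances, start sets, symbols, lists, windows and matching rules.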

Additional observations from a re-analysis of the deposited data

How the results depend on the processing

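Over 8 results, 62 values under other settings stayed close to the reported one and 16 moved. For shares and medians, close means inside the reported 95% interval. For the number of peaks, which has none, 7 other settings gave 291 to 513 against 374, of which the replicate 3 and replicate 4 lists alone gave 471 and 513. With 250 bp in place of 500 bp to the noncoding start there were 181 peaks, 62.4% upstream of the start, and 10% of the lone genes had one; with 1000 bp there were 721 peaks and 32.3% of the genes. In the stronger part of the IDR list, cut at its median, were 8.82% of the peaks. Recurrence in both replicates was 24.6% with summits matched within 50 bp, 47.1% within 200 bp and 44.7% by overlap of at least 50% of the peak. For the peaks of the set among the stronger 50% of pooled peaks, the median signal was 41.8. CACGTG was within 50 bp of 1.07% of the summits, and 3.53% of the genes had an IDR peak. With either replicate's own list in place of the pooled one, 25.7 to 28.2% of its peaks were matched in the other, and 24.0 to 25.8% of the genes had a peak. These settings change distance, window or list by construction. The IDR share and median signal were not recomputed on single replicate lists, since the IDR peaks and their signals are pooled ones. No paired analysis was possible because there is 1 group.

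The unknown read depth and the number of replicates, 2, limit these values, and the control used in calling was not analysed here: a peak absent from a list is not shown to be unbound, and weak peaks are mixed with background.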
